A study of Mus musculus with 12 samples.

Results

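Hox genes encode homeodomain transcription factors that stand in 4 chromosomal clusters, and the members counted here are all protein-coding genes of the deposited table whose symbol is Hoxa, Hoxb, Hoxc or Hoxd followed by a number. They came to 40 of 54532 genes, under 39 symbols, because Hoxd4 is listed under 2 identifiers, ENSMUSG00000115956 and ENSMUSG00000101174. In the mm10 mouse genome the Hoxa cluster held 11 of them (chr6:52155590-52260880), the Hoxb cluster 10 (chr11:96194316-96368256), the Hoxc cluster 9 (chr15:102921103-103036852) and the Hoxd cluster 10 (chr2:74668310-74765142). RNA sequencing was done on total RNA of whole spinal cord from C57BL/6 mice aged 2 to 3 months, taken up in Trizol. The mice were wild-type littermate controls or Drd2mGFAP cKO mice, a conditional knockout of the dopamine receptor gene Drd2, named after the promoter of the astrocyte gene GFAP. Cord was taken either from untreated mice (basal) or 17 days into EAE, experimental autoimmune encephalomyelitis, an induced autoimmune attack on the central nervous system. With 2 genotypes and 2 states this gave 4 groups of 3 libraries.

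The genes of a Hox cluster are numbered by paralogue group, and their order on the chromosome matches the order in which they are expressed along the embryonic body axis, the low numbers towards the head and the high numbers towards the tail. In the spinal cord this code assigns neurons to the cervical, brachial, thoracic, lumbar and sacral levels, and many members remain expressed in the adult cord. Hox proteins bind DNA together with the PBX and MEIS families, and Polycomb and trithorax complexes hold their genes silent or active after the embryo has set the pattern.

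The promoter sequences of 4 members are given because the results turn on these genes: Hoxb8 was the most abundant, Hoxa10 and Hoxd8 were lower at EAE in control mice, and Hoxd11 varied between libraries with the other posterior genes. Each run is the 250 bases before the RefSeq start site (build GRCm38.p6), written 5′ to 3′ on the strand of the gene, with every CpG in capitals. The Hoxb8 run is chr11:96281655-96281904 on the plus strand, Hoxa10 is chr6:52240855-52241104 on the minus strand, Hoxd8 is chr2:74704365-74704614 on the plus strand and Hoxd11 is chr2:74679308-74679557 on the plus strand.
Hoxb8: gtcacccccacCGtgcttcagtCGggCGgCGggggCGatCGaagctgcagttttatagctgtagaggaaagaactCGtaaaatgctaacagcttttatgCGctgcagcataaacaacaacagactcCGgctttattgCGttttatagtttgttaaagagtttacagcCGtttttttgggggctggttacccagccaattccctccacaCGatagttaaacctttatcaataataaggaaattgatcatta
Hoxa10: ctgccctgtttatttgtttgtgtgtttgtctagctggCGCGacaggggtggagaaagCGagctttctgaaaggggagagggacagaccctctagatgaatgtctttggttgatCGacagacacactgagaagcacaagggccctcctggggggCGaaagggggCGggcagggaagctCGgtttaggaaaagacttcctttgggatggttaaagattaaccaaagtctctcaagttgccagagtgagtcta
Hoxd8: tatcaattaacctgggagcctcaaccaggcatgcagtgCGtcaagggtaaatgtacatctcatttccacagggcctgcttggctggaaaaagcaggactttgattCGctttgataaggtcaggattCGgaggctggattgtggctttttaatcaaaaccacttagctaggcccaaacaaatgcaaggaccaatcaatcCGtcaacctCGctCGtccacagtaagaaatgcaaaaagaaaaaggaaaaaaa
Hoxd11: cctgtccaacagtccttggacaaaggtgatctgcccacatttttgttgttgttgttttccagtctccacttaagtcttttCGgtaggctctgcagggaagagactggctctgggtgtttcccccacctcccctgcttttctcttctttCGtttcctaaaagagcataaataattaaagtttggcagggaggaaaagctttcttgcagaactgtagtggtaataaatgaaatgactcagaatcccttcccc
RefSeq promoters were matched for 22 of the 39 symbols. Their 250 bases held a median of 12 CpGs, with a range of 2 to 35, against a median of 6 over the 32851 promoters of the same length. Of the 4 printed, Hoxb8 had 12, Hoxa10 had 7, Hoxd8 had 6 and Hoxd11 had 2, so Hoxb8 alone of these reached the median of the family. Searched on both strands, the motif CCAAT, bound by the general factor NF-Y, was in 13 of the 22 (59.1%) and in 33.8% of all promoters. The composite site TGATTNAT of PBX with HOX was in 1 of the 22, that of Hoxa2, and in 2.82% of all. The core TTTAT of posterior HOX and CDX factors was in 8 of the 22 (36.4%) against 37.3% of all, and TATAAA, the TATA box, which contains the TTTAT core on the other strand, was in 3 (13.6%) against 12.4%. These are matches of letters in a short window.

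Hoxb8 is also a textbook target of a microRNA encoded inside the clusters. The mature miR-196a-5p is shown with its seed, bases 2 to 8, in capitals. Below it is the site in the longest Hoxb8 transcript, in the sense of the mRNA, with the only base that does not pair by Watson-Crick rules in capitals: 21 of its 22 bases were complementary.
miR-196a-5p: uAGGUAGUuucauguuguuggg
Hoxb8 site: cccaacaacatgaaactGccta
Reads on the 2 hairpin genes of this microRNA, Mir196a-1 and Mir196a-2, totalled 283 and 9 over the 12 libraries. Such reads come from long RNA that spans the hairpin, so they do not measure the mature form.

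Library totals ran from 15128913 to 17592105 counts. The library of cKO basal replicate 2 stood apart from all others: it detected 17220 genes against 24303 to 26056, and ribosomal protein genes took 5.68% of its counts against 0.879% to 1.80%. The library labelled cKO EAE replicate 3 lacked the inflammatory transcripts of the other EAE libraries, with the antigen presentation gene Cd74 at 6.56 CPM (counts per 1000000 counts) against 339.8 to 2736 and the astrocyte gene Gfap at 1026 against 3743 to 5769. All 6 basal libraries carried Xist (316 to 753 CPM) and no Ddx3y, and all 6 EAE libraries carried Ddx3y (69.7 to 74.5 CPM) and almost no Xist. Disease and sex therefore cannot be told apart in any contrast of EAE with basal. Drd2 in whole cord read 19.4 to 26.5 CPM in control basal and 17.6 to 34.7 CPM in cKO basal, which does not check a deletion aimed at GFAP-expressing cells. Nothing in the labels says more of the replicates than that they are biological, and p-values measure the spread between these libraries.

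The cord expressed a broad span of the code, centred on paralogue groups 5 to 10. Per length, Hoxb8 had the highest level in control basal cord, 95.7 ± 17.2 CPM per kilobase (SD, n = 3), followed by Hoxb9 (39.9 ± 5.66), Hoxc10 (35.8 ± 3.52), Hoxb6 (34.9 ± 12.05) and Hoxd8 (28.2 ± 4.88). The 3 highest carried 37.6% of the summed level of all 40. Hoxb8 stood clear of Hoxb9, but 34 of the 39 neighbouring pairs in the order of levels had overlapping ranges over the 3 libraries. That count does not compare the genes of a pair within each library. In CPM, 21 members averaged at least 10 in control basal and 9 averaged under 1.

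The clusters did not contribute equally. In control basal cord Hoxb gave 46.6% ± 2.87 (SD, n = 3) of the summed CPM per kilobase, Hoxa 19.6% ± 2.03, Hoxc 18.5% ± 1.41 and Hoxd 15.3% ± 0.673. By paralogue group the summed level was 138 ± 22.6 CPM per kilobase in group 8, 79.4 ± 11.4 in group 9, 72.9 ± 11.8 in group 10 and 54.2 ± 8.92 in group 6. Groups 7 (39.2 ± 4.36) and 5 (35.2 ± 5.85) came next. Their means, and those of groups 9 and 10, differed by less than the SD between libraries. Within each of the 3 libraries, however, group 7 was above group 5 and group 9 above group 10. Level then dropped towards both ends, to 14.9 ± 1.06 in group 4 and 1.01 ± 0.204 in group 1 on the head side, and to 9.61 ± 1.65 in group 11, 3.00 ± 1.29 in group 12 and 0.541 ± 0.244 in group 13 on the tail side. These sums run over 2 to 5 members a group. On the head side, Hoxd3 shares 62.3% of its exonic bases with genes of the same strand, and Hoxb3 52.9% with a gene of the opposite strand. On the tail side, Hoxa11 shares 35.0% with a gene of the opposite strand. The part of shared bases in these levels was not tested.

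**Figure D1:**
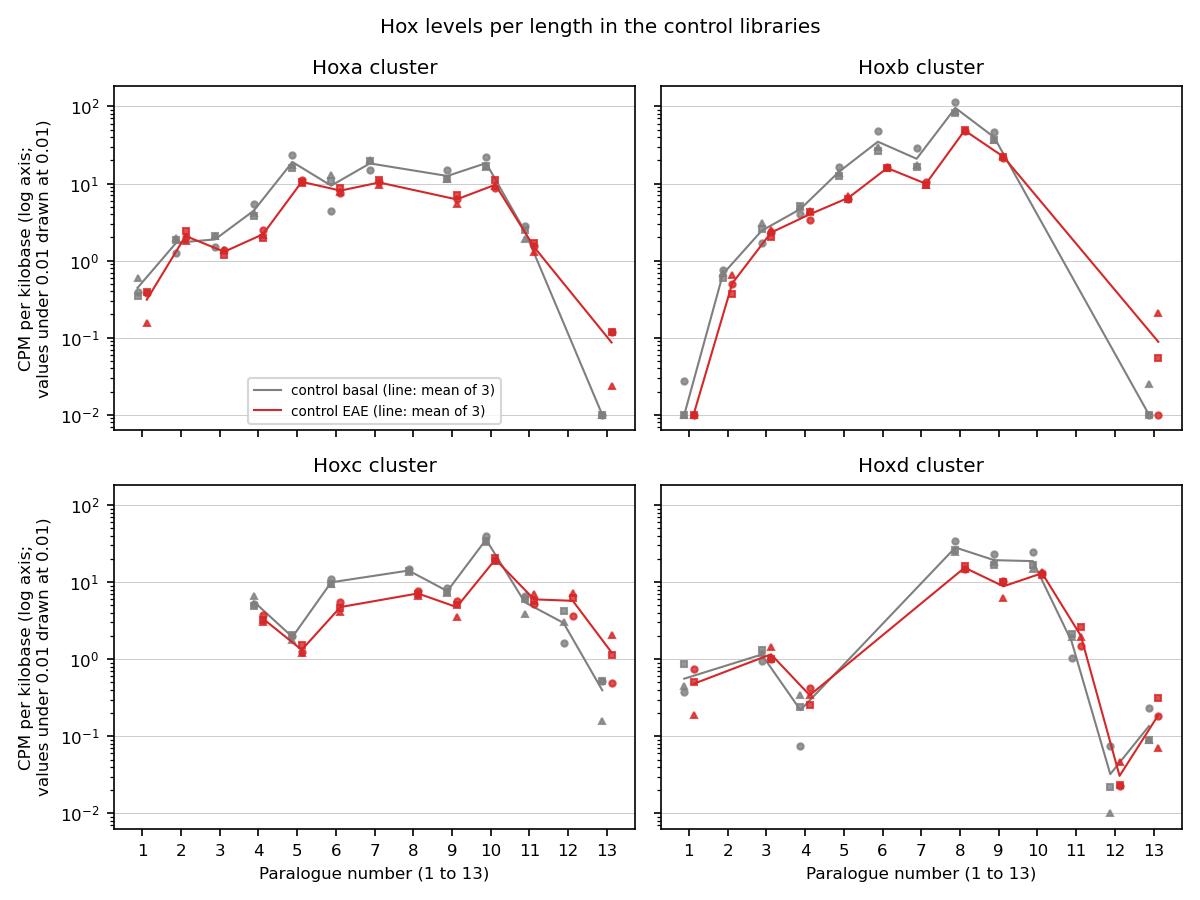
Level of each Hox gene per length (CPM per kilobase, log axis, values under 0.01 drawn at 0.01) against paralogue number in the 4 clusters, for the 3 control basal (grey) and 3 control EAE (red) libraries; lines join group means, and of the Hoxd4 identifiers the more abundant is drawn. Hoxb8 is the peak at 95.7 in control basal, and the red line lies under the grey one through most of the middle of each cluster.

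Both ends of the code were near the limit of detection. Hoxb1, which marks a hindbrain segment, had 0 or 1 count in every library, where a count of 0 allows up to 3. Hoxd12 had 0 to 4 counts. Hoxa13 and Hoxb13, expressed at the tail end of the embryo, had no count or 1 in each control basal library. The second Hoxd4 identifier, ENSMUSG00000101174, had at most 0.12 CPM, and 52.3% of its exonic bases lie in another gene of the same strand.

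Genes of the brain give a check of the tissue. Among transcription factors of forebrain and midbrain, Emx1, Emx2, Otx1, Otx2 and Six3 stayed at or under 0.29 CPM in all 12 libraries, whereas Lbx1 and Pax2, of spinal dorsal and inhibitory interneurons, were at 20.8 to 26.0 and 32.7 to 40.1 CPM in control basal. Lhx2, Tbr1 and Dmbx1 were at up to 1.5 CPM, and Neurod6 and En2 at up to 4.59 and 7.01 CPM.

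In control mice, 7 Hox genes of paralogue groups 5 to 10 were lower at EAE than at baseline. Of 35 members that passed the filter on low counts, 7 were called lower and 0 higher at an adjusted p under 0.05 (edgeR quasi-likelihood test). Over all 18601 genes tested, 5.05% were called lower and 12.1% higher. At an unadjusted p under 0.05 there were 12 lower and 0 higher members, against 11.2% and 17.4% of all genes. The fitted change was below 0 for 27 of 35 members (77.1%) against 50.4% of all genes, and the median log2 change was -0.68 against -0.01. The 3 EAE libraries lay wholly below the 3 basal libraries for 21 of the 35 (60%) and wholly above for 0, against 27% and 29.8% of all genes.

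Anterior to thoracic members come first. Hoxb5, of the cervical and brachial cord, read 45.3, 35.2 and 38.6 CPM in control basal and 17.5, 17.7 and 19.4 CPM in control EAE. Its highest EAE library was well under its lowest basal one, with a log2 change of -1.13 ± 0.34 (SE; adjusted p = 0.046). Hoxc6, a determinant of brachial motor columns, went from 22.6 to 26.5 CPM to 9.80 to 13.4 CPM (-1.07 ± 0.23; adjusted p = 0.0103). Hoxa7 went from 43.0 to 57.7 CPM to 27.5 to 31.6 CPM (-0.82 ± 0.25; adjusted p = 0.0427). Of its exonic bases, 20.4% are shared with an antisense transcript, Hoxaas3, and reads of the 2 cannot be separated without strand. Hoxd8 read 92.8, 70.8 and 68.6 CPM at baseline and 41.1, 44.8 and 41.2 CPM at EAE (-0.87 ± 0.25; adjusted p = 0.0383).

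Among thoracic and lumbar members, Hoxd9 read 49.2, 35.2 and 39.5 CPM in control basal and 21.9, 21.5 and 13.3 CPM in control EAE. No libraries overlapped, and the log2 change was -1.13 ± 0.24 (adjusted p = 0.00872), the smallest p of the family. Hoxa10 read 71.4, 55.8 and 53.2 CPM at baseline and 28.8, 35.8 and 30.0 CPM at EAE (-0.93 ± 0.21; adjusted p = 0.0116). Hoxc10, a determinant of lumbar motor neurons, read 76.1, 65.0 and 63.9 CPM and then 37.4, 39.9 and 35.7 CPM (-0.86 ± 0.18; adjusted p = 0.00968). The EAE levels of both lumbar genes were tightly grouped and under every basal level.

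Hoxb8, which has a role in the dorsal horn, showed the same separation without passing the test. It read 304, 219 and 233 CPM at baseline and 127, 130.3 and 128 CPM at EAE, a log2 change of -0.97 ± 0.59 (adjusted p = 0.332). Its error comes from a spread estimated over all 12 libraries, and among these cKO basal replicate 2 read 39.3 CPM.

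**Figure D2:**
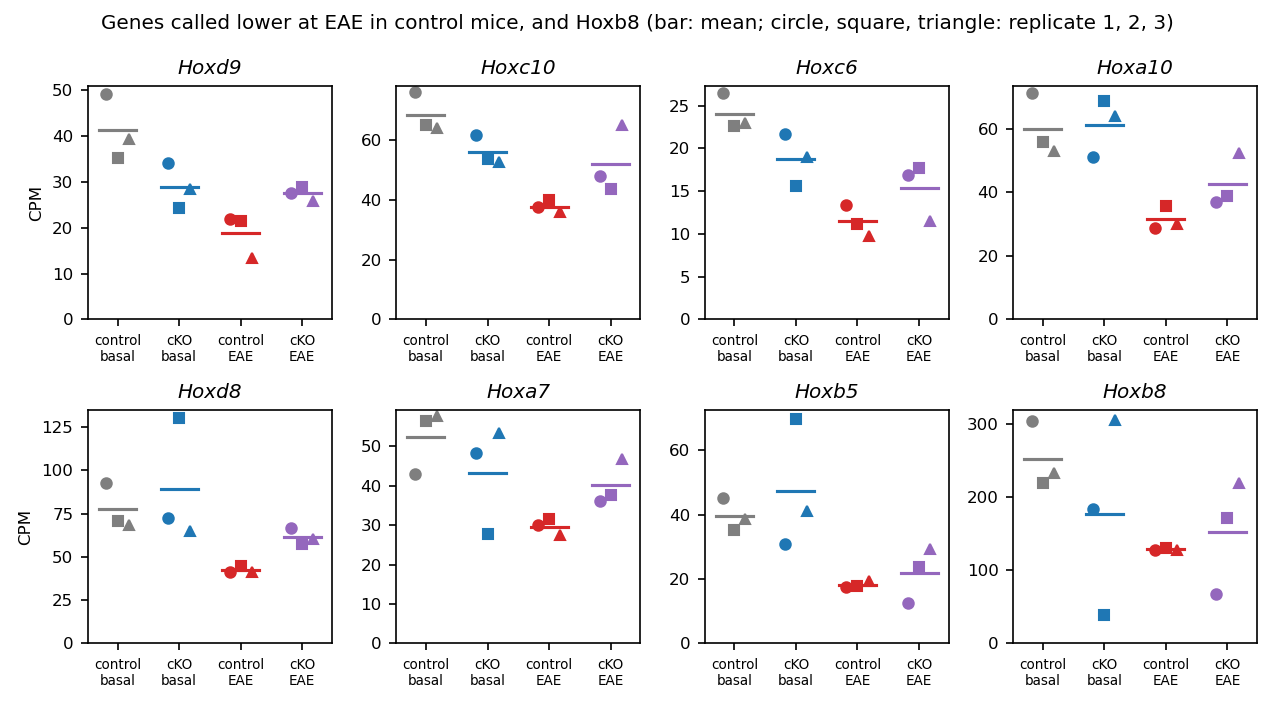
CPM in each of the 12 libraries for the 7 Hox genes called lower at EAE in control mice and for Hoxb8; bars are group means, and circle, square and triangle are replicates 1, 2 and 3. In all 8 panels the 3 control EAE libraries lie below the 3 control basal libraries.

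In control mice the median change differed along the code, by values only. The median log2 change was -0.22 over the 7 tested members of paralogue groups 1 to 3, of which 0 were called, and -0.87 over the 15 of groups 4 to 8, of which 4 were called and 14 were below 0. It was -0.92 over the 4 of group 9, with 1 called, and 0.13 over the 9 of groups 10 to 13, with 2 called, both of group 10. By cluster the medians were -0.75 for Hoxa, -0.91 for Hoxb, -0.69 for Hoxc and -0.11 for Hoxd. These differences between classes were not tested. At the posterior end Hoxc13 read 1.27, 1.27 and 0.39 CPM at baseline and 1.21, 2.78 and 5.07 CPM at EAE (1.63 ± 0.95; adjusted p = 0.309), and the 2 groups overlapped.

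The share of the summed per-length level that came from paralogue groups 9 to 13 was 36.3% ± 1.12 (SD, n = 3) in control basal and 39.3% ± 0.989 in control EAE, with libraries at 36.4%, 37.4% and 35.2% and then 38.3%, 40.2% and 39.4%. It was 35.0% ± 4.70 in cKO basal and 38.8% ± 3.95 in cKO EAE. The control libraries did not overlap, while those of the cKO did.

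The number called depended on which libraries set the spread. Without cKO basal replicate 2 and the library labelled cKO EAE replicate 3, 17 members were called lower and 1, Hoxc13, higher (1.64; adjusted p = 0.044), while 20.8% of all genes were called lower and 24.9% higher. The count was 17 without cKO basal replicate 2 alone, and it was 4 without any 1 of the 6 control libraries or without cKO EAE replicate 2. The shares of all genes called in those fits are not given here, so these counts are not results about the members alone.

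**Figure D3:**
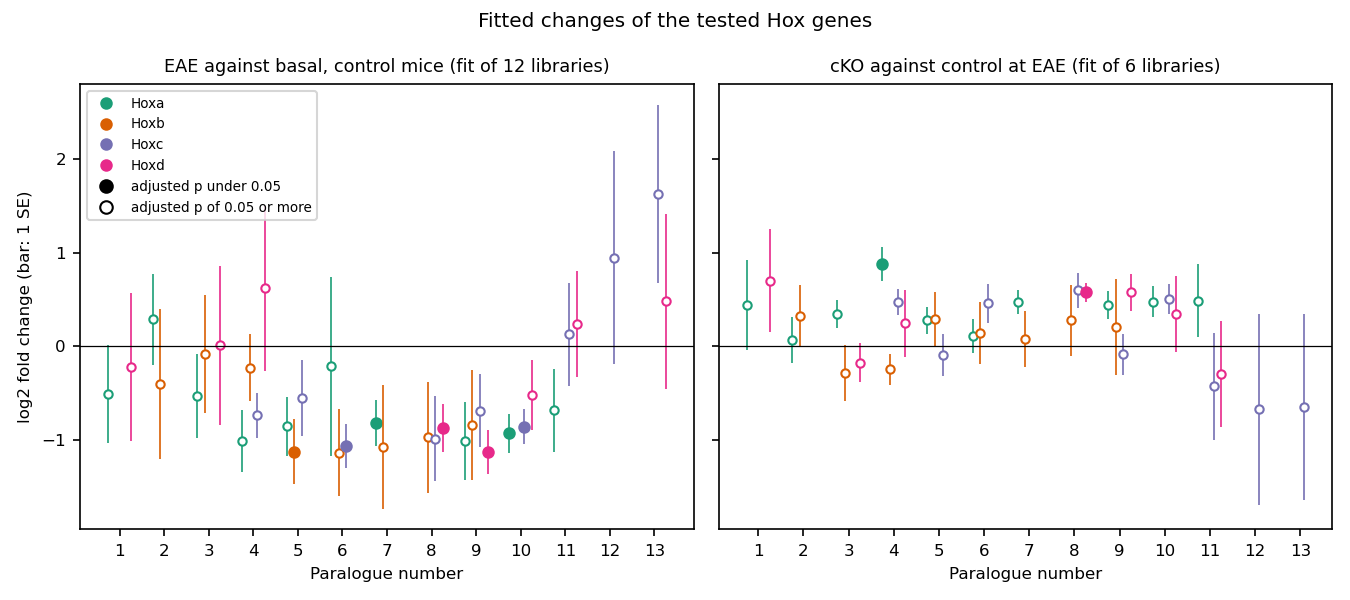
Fitted log2 fold change with 1 SE against paralogue number for EAE against basal in control mice (left) and cKO against control at EAE (right), coloured by cluster, filled where the adjusted p is under 0.05. On the left 7 filled points lie between -0.82 and -1.13 in groups 5 to 10; on the right the 2 filled points are Hoxa4 and Hoxd8, at 0.88 and 0.58.

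Markers of neurons were lower in the same libraries, where 5.05% of all genes were called lower and 12.1% higher. Of 12 neuronal genes, 6 were called lower and 0 higher, with a median log2 change of -1.18, and their summed level was 7944 to 8865 CPM in control basal and 2956 to 4120 CPM in control EAE. None of the 12 was at 0 in any library. Of 10 motor neuron genes, 3 were called lower and 0 higher, with summed levels of 411 to 518 CPM and then 115 to 223 CPM. All 10 monocyte and macrophage genes and all 10 T cell genes were called higher, the first going from 42.5 to 70.5 CPM to 3610 to 6337 CPM in sum. In whole tissue, fewer cells of a type and less RNA per cell cannot be told apart, and the part of these markers in the Hox result was not tested.

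In cKO mice, 0 of 35 members were called between EAE and basal in either direction (edgeR), where 0.0376% of all genes were called. At an unadjusted p under 0.05 edgeR gave 8 members, all lower, against 9.85% of all genes lower. The DESeq2 Wald test called 4 members, all lower, against 1.02% of all genes lower and 5.86% higher. The limma voom fit called 11, all lower, against 8.12% of all genes lower and 11.5% higher. The smallest p-values were those of Hoxc9, a determinant of thoracic motor columns (-1.39 ± 0.40; adjusted p = 0.129), Hoxb7 (-2.32 ± 0.68; adjusted p = 0.14), Hoxb5 (-1.11 ± 0.34; adjusted p = 0.158) and Hoxb6 (-1.44 ± 0.47; adjusted p = 0.173). Hoxb7 read 24.2, 181 and 32.2 CPM in cKO basal and 8.51, 18.5 and 20.4 CPM in cKO EAE. Its high mean at baseline rests on the library of cKO basal replicate 2. In cKO basal that library was also the highest for Hoxc9, Hoxb5 and Hoxb6, at 48.9, 69.7 and 156 CPM. The others read 15.6 and 19.0, 30.9 and 41.3, and 45.8 and 73.0 CPM. The EAE libraries lay wholly below the basal ones for 5 of the 35 members (14.3%), Hoxa5, Hoxa9, Hoxb5, Hoxb7 and Hoxc9, against 5.78% of all genes.

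Without that library and the library labelled cKO EAE replicate 3, 3 members were called lower and 0 higher in cKO mice: Hoxb5 (-1.01; adjusted p = 0.0189), Hoxa10 (-0.62; adjusted p = 0.0366) and Hoxa9 (-0.57; adjusted p = 0.0433). Among all genes 3.51% were then called lower and 10.8% higher. The fitted change was below 0 for 31 of the 35 members between these 4 cKO libraries, against 51% of all genes. The median log2 change was -0.37 over paralogue groups 1 to 3 and -0.47 over groups 4 to 8. It was -0.61 over group 9 and -0.92 over groups 10 to 13, an order unlike that in control mice. Over groups 11 to 13, cKO EAE replicate 2, kept in this fit, had a median log2 ratio of -2.30 to the control EAE mean. In the fit of all 12 libraries the medians in cKO mice, in the same order, were 0.36, -0.21, -0.86 and -0.29.

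Whether the EAE change differed between genotypes was tested as an interaction over all 12 libraries. The test called 0 of 35 members and 0% of all genes (edgeR). At an unadjusted p under 0.05 there were 4 members, all with a positive difference, against 3.97% of all genes with a positive and 5.15% with a negative difference. DESeq2 called 0 members and 1.03% of all genes, and limma voom called 7 members, all positive, against 8.77% of all genes positive and 7.35% negative. The 4 were Hoxd9 (difference of log2 changes 1.05 ± 0.33), Hoxa4 (1.46 ± 0.47), Hoxc10 (0.76 ± 0.26) and Hoxc6 (0.78 ± 0.32), each with an adjusted p of 0.547. A positive difference is a smaller decrease or an increase in cKO mice. Without cKO basal replicate 2 and the library labelled cKO EAE replicate 3 the test again called 0 members and 0% of all genes. At an unadjusted p under 0.05 there were then 6 members with a positive and 4 with a negative difference, against 8.2% and 9.94% of all genes. The fitted difference was below 0 for 16 of 35 members without those libraries and for 11 of 35 with them. The lower levels in control mice and the missing calls in cKO mice are therefore not shown to differ.

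At EAE, 2 Hox genes were higher in cKO cord than in control cord. This comparison shares the 3 control EAE libraries with that of EAE and basal in control mice. Of 34 members tested on the 6 EAE libraries, 2 were called higher and 0 lower, while 6.13% of all genes were called higher and 1.54% lower, so the share of members called (5.88%) was near that of all genes. The first was Hoxd8, with 41.1, 44.8 and 41.2 CPM in control EAE and 66.8, 57.6 and 60.4 CPM in cKO EAE (0.58 ± 0.10; adjusted p = 0.044). The second was Hoxa4, a gene of cervical levels, with 3.92, 3.14 and 3.44 CPM and then 5.98, 7.19 and 5.65 CPM (0.88 ± 0.18; adjusted p = 0.0459). In both genes every cKO library exceeded every control library.

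Below the threshold came Hoxa7 (0.48 ± 0.13; adjusted p = 0.0616) and Hoxc4 (0.47 ± 0.14; adjusted p = 0.0717). The 3 cKO libraries lay wholly above the 3 control libraries for 10 of the 34 members and wholly below for 0, against 21.2% and 26.7% of all genes. At an unadjusted p under 0.05 there were 9 members, all higher, against 19.1% of all genes. The median log2 change was 0.29 for the members and 0.00 for all genes. Both calls were lost, with 0 members called, when all 12 libraries entered the fit or when any 1 control EAE library or cKO EAE replicate 1 was left out, and 0% of all genes were called in those fits. Without the library labelled cKO EAE replicate 3, 4 members were called higher, against 9.11% of all genes higher.

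Neuronal genes moved the same way here: 7 of 12 were called higher and 0 lower, with a median log2 change of 0.89, and 6 of 10 motor neuron genes were called higher. Their summed levels were 6015 to 7908 CPM and 359 to 667 CPM in cKO EAE, and none of them was at 0. Of 10 astrocyte genes 4 were called higher and 0 lower, with a median log2 change of 0.34. Genes of infiltrating cells were at lower levels in cKO EAE. The 10 monocyte and macrophage genes summed to 897, 1854 and 112 CPM in cKO EAE against 3610 to 6337 CPM in control EAE, with 0 called and a median log2 change of -2.57. The 10 T cell genes summed to 36.4, 56.7 and 6.56 CPM against 116 to 126 CPM, with 1 called lower and a median of -1.72. Over all genes, 6.13% were called higher and 1.54% lower. The part of all these markers in the Hox result was not tested.

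At baseline the genotypes were not distinguished. Of 34 members 0 were called (edgeR), as were 0% of all genes, and at an unadjusted p under 0.05 there were 0 members against 0.181% of all genes; DESeq2 and limma voom called 0 as well. The smallest p-values were those of Hoxc13 (1.43 ± 0.61), Hoxd9 (-0.51 ± 0.25), Hoxb7 (1.31 ± 0.82) and Hoxc5 (-0.78 ± 0.50), all with an adjusted p of 0.997. The 3 cKO libraries lay wholly below the controls for 5 members, among them Hoxd9, and wholly above for 1, Hoxc13, against 3.64% and 2.14% of all genes.

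Single libraries differed from their groups in ways that followed the clusters or the paralogue numbers; these patterns were picked out after the values were seen and are given without a test. In cKO EAE replicate 1 the Hoxb genes were low. Hoxb9 read 18.8 CPM there against 84.5 and 90.9 in the other cKO EAE libraries and 55.5 to 59.0 in control EAE, and Hoxb8 read 66.9 against 171 and 219. Of Hoxb5 to Hoxb9, 4 had their lowest value of all 12 libraries in it. Hoxc8, of the same paralogue group as Hoxb8, was not low, at 32.3 CPM against 35.5 and 21.6. The summed per-length level of Hoxb5 to Hoxb9 was 0.525 times that of the Hoxa, Hoxc and Hoxd genes of groups 5 to 9 in this library, and 1.17 to 1.95 times in the 11 others.

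Several transcription factors of dorsal horn neurons were low in the same library. Lmx1b read 1.67 CPM against 14.4 to 21.8 in the other EAE libraries, Tlx3 0.398 against 3.75 to 4.74, Gbx1 0.46 against 4.25 to 8.15 and Lbx1 3.51 against 13.7 to 17.9. Spinal factors were not all low there. The listed interneuron and motor neuron factors summed to 142 CPM, against 133 to 151 in control EAE and 160 and 213 in the other cKO EAE libraries. Evx1, of that list, read 2.30 CPM, its highest of the 12 libraries. Genes of motor neurons were high: Chat, the acetylcholine synthesis enzyme, read 46.1 CPM and Mnx1 5.40 CPM, the highest of the 12 libraries for both. The part of these genes in the Hoxb values was not tested.

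**Figure D4:**
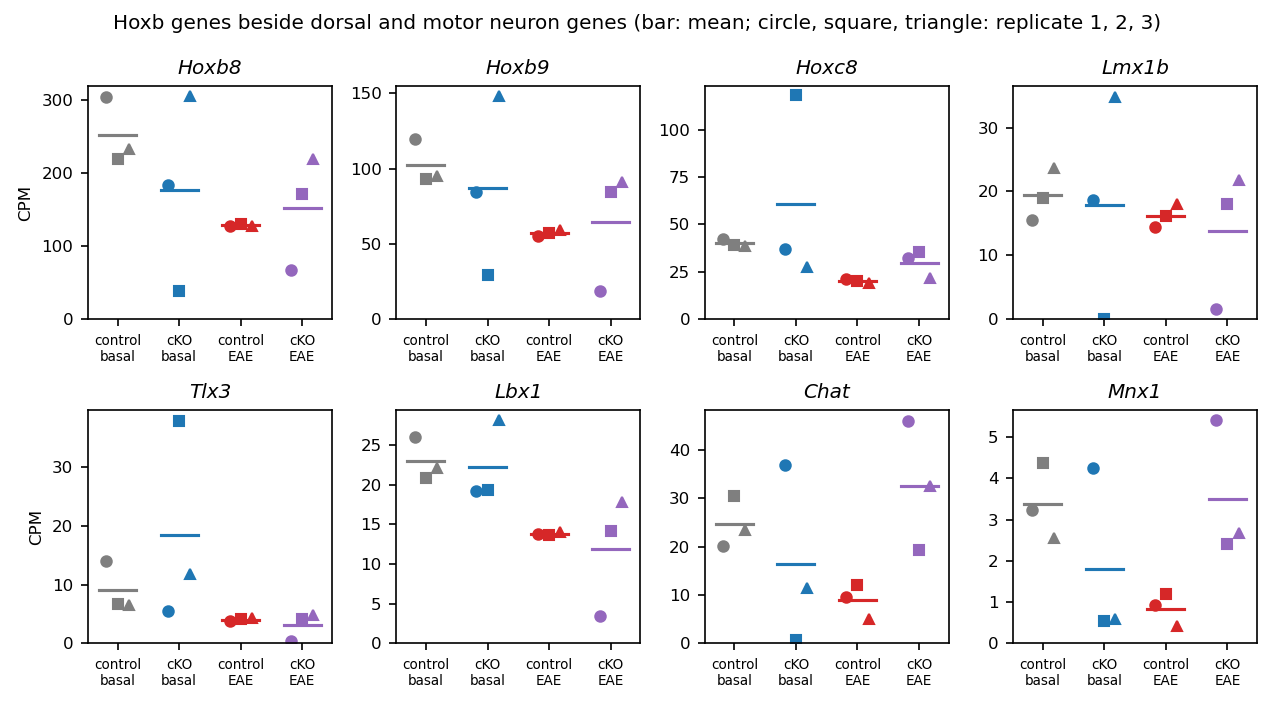
CPM in each of the 12 libraries for Hoxb8, Hoxb9 and Hoxc8 beside the dorsal horn genes Lmx1b, Tlx3 and Lbx1 and the motor neuron genes Chat and Mnx1; bars are group means, and circle, square and triangle are replicates 1, 2 and 3. In cKO EAE replicate 1 (purple circle) Hoxb8, Hoxb9, Lmx1b, Tlx3 and Lbx1 are the lowest of their group, at 66.9, 18.8, 1.67, 0.398 and 3.51 CPM, and Chat and Mnx1 the highest.

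In cKO EAE replicate 2 the posterior genes were low instead. Hoxc11 had 41 counts (2.46 CPM) against 145 to 254 counts in the other EAE libraries, and Hoxd11 had 32 counts (1.92 CPM) against 108 to 187. Hoxc12 had 0 counts, which allows up to 3, against 64 to 129. Hoxd10, of the lumbar cord, read 14.1 CPM there, its lowest value of the 12 libraries. Hoxa10 and Hoxc10, of the same paralogue group, were not below control EAE in it. They read 38.8 and 43.5 CPM, against 28.8 to 35.8 and 35.7 to 39.9 CPM in control EAE. In the other cKO EAE libraries Hoxa10 read 37.1 and 52.4 CPM and Hoxc10 47.8 and 64.9 CPM. Genes of groups 4 to 9 were not low in it, with a median log2 ratio of 0.36 to the control EAE mean over groups 4 to 8 and 0.47 over group 9.

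The library labelled cKO EAE replicate 3 was its opposite at the tail end. It had 25 counts of Hoxa13 (1.52 CPM) and 48 of Hoxb13 (2.92 CPM), where the other 11 libraries had 0 to 5 and 0 to 9. Groups 11 to 13 summed to 50.7 CPM in it, to 7.01 CPM in cKO EAE replicate 2 and to 25.6 CPM in cKO EAE replicate 1. In control EAE the same sum was 26.1, 37.0 and 38.7 CPM. Posterior levels in the cKO EAE group thus spanned a wider range than in the control EAE group, by values only.

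**Figure D5:**
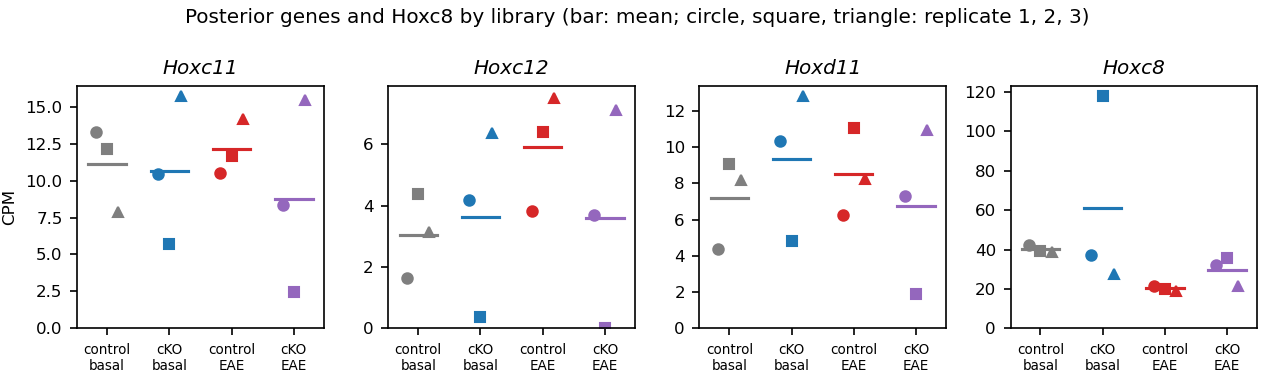
CPM in each of the 12 libraries for the posterior genes Hoxc11, Hoxc12 and Hoxd11 and for Hoxc8; bars are group means, and circle, square and triangle are replicates 1, 2 and 3. In cKO EAE replicate 2 (purple square) the 3 posterior genes are at 2.46, 0 and 1.92 CPM, while Hoxc8 is at 35.5 CPM.

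In cKO basal replicate 2, the library that stood apart, 10 of the 40 members had 0 counts against 2 to 5 in the others. Of the 31 members with at least 1 CPM in control basal, it lay below all 5 other basal libraries for 19 and above all of them for 9. Hoxa6, Hoxb2, Hoxd1 and Hoxd3 were at 0. Hoxb7 read 181 CPM, Hoxa9 211 CPM and Hoxc8 118 CPM, while the other basal libraries ran from 24.2 to 45.1, 60.9 to 82.4 and 27.4 to 42.2 CPM. The cKO basal group, which holds this library, had the widest spread. The median coefficient of variation over these 31 members was 56.4% in that group. It was 22.1% in cKO EAE, 17.3% in control basal and 11.6% in control EAE. The spread of cKO basal without this library was not computed.

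The cluster spans held 46 other genes, of which 10 had no count. Of the noncoding ones, 17 averaged at least 1 CPM in a group, among them Hotairm1, Hoxaas2, Hoxaas3 and Hoxa11os in Hoxa, Gm53, Hoxb5os and Hoxb3os in Hoxb, Hotair in Hoxc and Haglr and Hoxd3os1 in Hoxd. Of the 22 neighbours tested, 0 were called in control EAE against basal and 1 had an unadjusted p under 0.05 (edgeR), where 17.1% of all genes were called. Without cKO basal replicate 2 and the library labelled cKO EAE replicate 3, 4 of 23 were called, against 45.8% of all genes: Hotairm1 (-1.01; adjusted p = 0.0068), Gm27477 (-1.10; adjusted p = 0.0288) and Gm53 lower, and Gm28230 (0.83; adjusted p = 0.0254) higher. Gm53, a long noncoding RNA of the Hoxb cluster (chr11:96251105-96264868), read 12.02, 18.5 and 22.4 CPM in control basal and 9.98, 12.96 and 10.9 CPM in control EAE, so the groups overlapped. Its log2 change was -0.65 ± 0.31 (adjusted p = 0.202) over all 12 libraries and -0.64 (adjusted p = 0.0322) without those 2. Hotair, transcribed from the posterior Hoxc cluster (chr15:102944062-102947730), read 0.18 CPM in cKO EAE replicate 2 against 2.93 and 7.84 CPM in the other cKO EAE libraries. It was low in the library where Hoxc11 and Hoxc12 were low.

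Partners and regulators were compared from lists. In control EAE against basal, 5.05% of all genes were called lower and 12.1% higher. In cKO against control at EAE, 6.13% of all genes were called higher and 1.54% lower. Of 9 Hox cofactors, Pbx3 (-0.87 ± 0.19; adjusted p = 0.00939) and Meis2 (-0.81 ± 0.24; adjusted p = 0.0426) were called lower in control EAE and 0 higher, with a list median of -0.14. Pbx3 was called higher in cKO than in control at EAE (0.68 ± 0.13; adjusted p = 0.044). Of 18 Polycomb genes, Ezh2, the H3K27 methyltransferase that is abundant in dividing cells, was the only 1 called in control EAE (1.18 ± 0.29; adjusted p = 0.0189), and the list median was 0.14. Of 8 trithorax and H3K27 demethylase genes 0 were called (edgeR) in any of the 5 comparisons.

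Of 8 genes that pattern the axis upstream of Hox and were tested in control mice, 3 were called higher at EAE and 0 lower. Over all genes 12.1% were called higher and 5.05% lower. Among the 3 were Egr2 (6.12 ± 0.72; adjusted p = 0.00318) and Aldh1a2, a retinoic acid synthesis enzyme (1.37 ± 0.38; adjusted p = 0.0306). Egr2 is also a gene of myeloid cells, whose markers rose in these libraries, and that part was not tested. Aldh1a2 is also among the 10 listed markers of fibroblasts and meninges, of which 6 were called higher and 1 lower in control EAE. That part was not tested either. Rara, a retinoic acid receptor, was called lower in cKO than in control at EAE (-0.72 ± 0.14; adjusted p = 0.044). Of 22 spinal interneuron and motor neuron transcription factors, Evx1 (-1.65 ± 0.42; adjusted p = 0.0205) and Isl2 (-1.90 ± 0.51; adjusted p = 0.0266) were called lower in control EAE and 0 higher. At EAE, 5 of the 22 were called higher in cKO than in control, against 6.13% of all genes. Among the 5 were Isl2 (2.55 ± 0.49) and Lhx4 (1.59 ± 0.28), both with an adjusted p of 0.044.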

How the data were processed

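The submitters' processing notes name HISAT2 2.0.5, featureCounts 1.5.0-p3 and the build mm10; the authors deposited raw counts per gene for 12 libraries, 3 a group. Strand handling and the annotation release are not given in the sources used here, and 16 members share exonic bases with another gene of GENCODE M21. Depth was 15128913 to 17592105 counts a library. CPM are counts per 1000000, with library totals corrected by TMM; division by the deposited gene length gave CPM per kilobase. Genes passing filterByExpr were tested with edgeR 4.0.16 (quasi-likelihood, R 4.3.3) over the whole table, with Benjamini-Hochberg adjustment and a threshold of 0.05. The 3 contrasts of EAE responses used all 12 libraries, and the contrasts of genotype the 6 libraries of that state. DESeq2 1.42.0, limma 3.58.1 (voom with sample weights), other scalings, filters and library sets were alternatives. Scripts were tested on simulated counts with 200 changed genes. Named with a test are, in each comparison, the called members, or the 4 of smallest p, and up to 4 genes a list. The members and gene lists were chosen with earlier results of these data known. Values of a few listed genes are not reported here.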

Additional observations from a re-analysis of the deposited data

How the results depend on the processing

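Counts of called Hox genes depended on the fit. For EAE against basal in control mice the count moved from 7 to 4 without a filter on low counts, to 20 with limma voom, to 22 with only the 6 control libraries and to 18 without both libraries that stood apart; leaving out 1 library gave 4 to 17. For EAE against basal in cKO mice it moved from 0 to 4 with DESeq2, 11 with limma voom and 3 without both libraries, and for the difference between genotypes from 0 to 7 with limma voom. For cKO against control at EAE it moved from 2 to 6 with DESeq2, 9 with limma voom and 0 with all 12 libraries; leaving out 1 library gave 0 to 4. The share of all genes called moved as well. Without both libraries it went from 17.1% to 45.8% for EAE against basal in control mice. In cKO mice it went from 0.0376% to 14.3%. A count given without the share over all genes is therefore not a result about the members alone. That limit holds for the counts printed here without a share, among them 20 with limma voom and 22 with the 6 control libraries. The cause of these shifts was not tested. The 7 genes called in control mice were all among those called by limma voom, by the 6-library fit and without both libraries. Over all alternatives, 315 of the 377 recomputed values of named genes kept their direction and side of the threshold, 45 lost the call, 16 gained it and 1 reversed: Hoxb7 in cKO against control at baseline ranged from -0.19 (without cKO basal replicate 2) to 1.73 (without cKO basal replicate 1). The share from paralogue groups 9 to 13 in control basal was 37.5% on summed CPM, without division by length.

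The labels do not say whether the replicate numbers pair the libraries. Same-numbered libraries of different groups had correlations of deviations from -0.51 to 0.42. These values cannot decide it, because libraries of different numbers were not compared. With the replicate number as a block, 4 genes were called for EAE against basal in control mice, all among the 7, and 0 for cKO against control at EAE; the count stayed at 0 in the other 3 comparisons. With the block, the share of all genes called is not given here, so these counts are not results about the members alone. In the fit of all 12 libraries, the 5 members that did not pass the filter on low counts were not tested.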
